A study of Mus musculus with 6 samples.

Results

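The genes described here are 39 genes of the cell cycle and of DNA replication. Earlier results of these data were known when these genes were chosen, by symbol, from the 53090 rows of the count tables. They fall into 16 genes that act at the start of DNA synthesis (G1/S genes) and 23 that act in G2, mitosis and cytokinesis (G2/M genes). Their RNA was counted in 6 neutrophil libraries from mice, 3 of liver and 3 of blood cells, and the comparison is of liver with blood. All of the mice had been on a diet with DDC (3,5-diethoxycarbonyl-1,4-dihydrocollidine), which damages bile ducts, for 1 week, so neither group is untreated. The labels give no strain, age or genotype, and no library from mice without DDC is part of the comparison. Selection with magnetic beads was for Ly6G, which marks the surface of neutrophils in mice, and it followed a Percoll gradient for the liver cells and red cell lysis for the blood. Organ and preparation therefore cannot be told apart. The libraries held 13778681 to 17579669 counts in liver and 13054673 to 14403803 in blood. The labels state an n of 3 but do not tie a library to a mouse, so the p-values rest on the spread among these libraries, which may be technical.

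A dividing cell first licenses its replication origins by loading the MCM helicase, then copies its DNA at forks that need PCNA and a supply of deoxynucleotides, and finally enters mitosis under cyclin B and CDK1. G1/S genes are switched on mainly by E2F factors, and G2/M genes mainly by the MuvB complex together with B-MYB and FOXM1. Neutrophils divide as precursors in the bone marrow and leave the cycle before they reach the blood, so mature neutrophils are known as cells that do not divide. Some proteins of the replication machinery, PCNA among them, are known to have other roles in mature neutrophils.

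The 2 classes carry different sequence motifs in their promoters, and 7 stretches are shown as examples of the motifs searched in genes described below. RefSeq promoter windows (GRCm38.p6, 250 bases before to 50 after a start site) were matched for 30 of the 39 genes. They were searched on both strands for 3 motifs. The CHR motif (TTTGAA) is bound by MuvB complexes, the CCAAT motif by NF-Y, and the E2F motif was taken as TTTCCCGC, TTTGGCGC or TTTCGCGC. Overlapping matches on opposite strands were each counted, and a window was counted once per motif. In a check against GENCODE M21, the bases after the start did not open a transcript of the gene for Mcm5, Mcm6 and Aurka. Match positions from the start are less certain for those genes. Capitals below mark the letters of a match on either strand, so that ATTGG is CCAAT and TTCAAA is TTTGAA read from the other strand. The stretches are written 5′ to 3′ on the strand of the gene. They begin with 3 G1/S genes, Mcm6 and Mcm5 with E2F and CCAAT matches and Rrm1 with CCAAT matches alone, followed by 4 G2/M genes with CHR and CCAAT matches.
Mcm6 (chr1:128359706-128359820, minus strand): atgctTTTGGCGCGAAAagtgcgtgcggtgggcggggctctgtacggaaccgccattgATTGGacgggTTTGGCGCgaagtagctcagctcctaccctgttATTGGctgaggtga
Mcm5 (chr8:75109354-75109508, plus strand): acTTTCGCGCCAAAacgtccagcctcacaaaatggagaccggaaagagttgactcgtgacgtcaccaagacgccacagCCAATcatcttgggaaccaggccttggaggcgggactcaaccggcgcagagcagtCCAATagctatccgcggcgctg
Rrm1 (chr7:102441600-102441694, plus strand): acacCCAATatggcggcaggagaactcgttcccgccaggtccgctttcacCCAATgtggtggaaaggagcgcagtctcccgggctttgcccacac
Cdk1 (chr10:69352939-69353047, minus strand): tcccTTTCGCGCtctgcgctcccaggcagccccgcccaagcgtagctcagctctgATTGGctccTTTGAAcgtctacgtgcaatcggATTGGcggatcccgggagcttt
Mki67 (chr7:135716465-135716574, minus strand): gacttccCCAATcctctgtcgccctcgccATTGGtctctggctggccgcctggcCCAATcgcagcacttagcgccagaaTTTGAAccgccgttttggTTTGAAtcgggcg
Top2a (chr11:99024190-99024289, minus strand): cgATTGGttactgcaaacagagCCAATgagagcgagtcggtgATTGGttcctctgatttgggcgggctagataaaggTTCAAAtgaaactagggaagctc
Kif23 (chr9:61946790-61946819, minus strand): caggcggccgctgATTGGcctgTTTGAAat

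E2F matches lay in 6 of the 14 windows of G1/S genes (42.9%) and in 1 of the 18 windows of G2/M genes (5.56%), that of Cdk1, beside 1.84% of all 32817 promoter windows. CHR matches showed the opposite distribution, with 13 of 18 G2/M windows (72.2%), 1 of 14 G1/S windows (7.14%), that of Mcm2, and 17.9% of all windows. CCAAT was frequent in both classes, at 16 of 18 G2/M windows (88.9%) and 9 of 14 G1/S windows (64.3%), beside 37.4% of all windows. CHR and CCAAT together lay in 13 G2/M windows (72.2%), beside 6.94% of all windows. A match describes these letters only and is not a measured binding site.

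**Figure D1:**
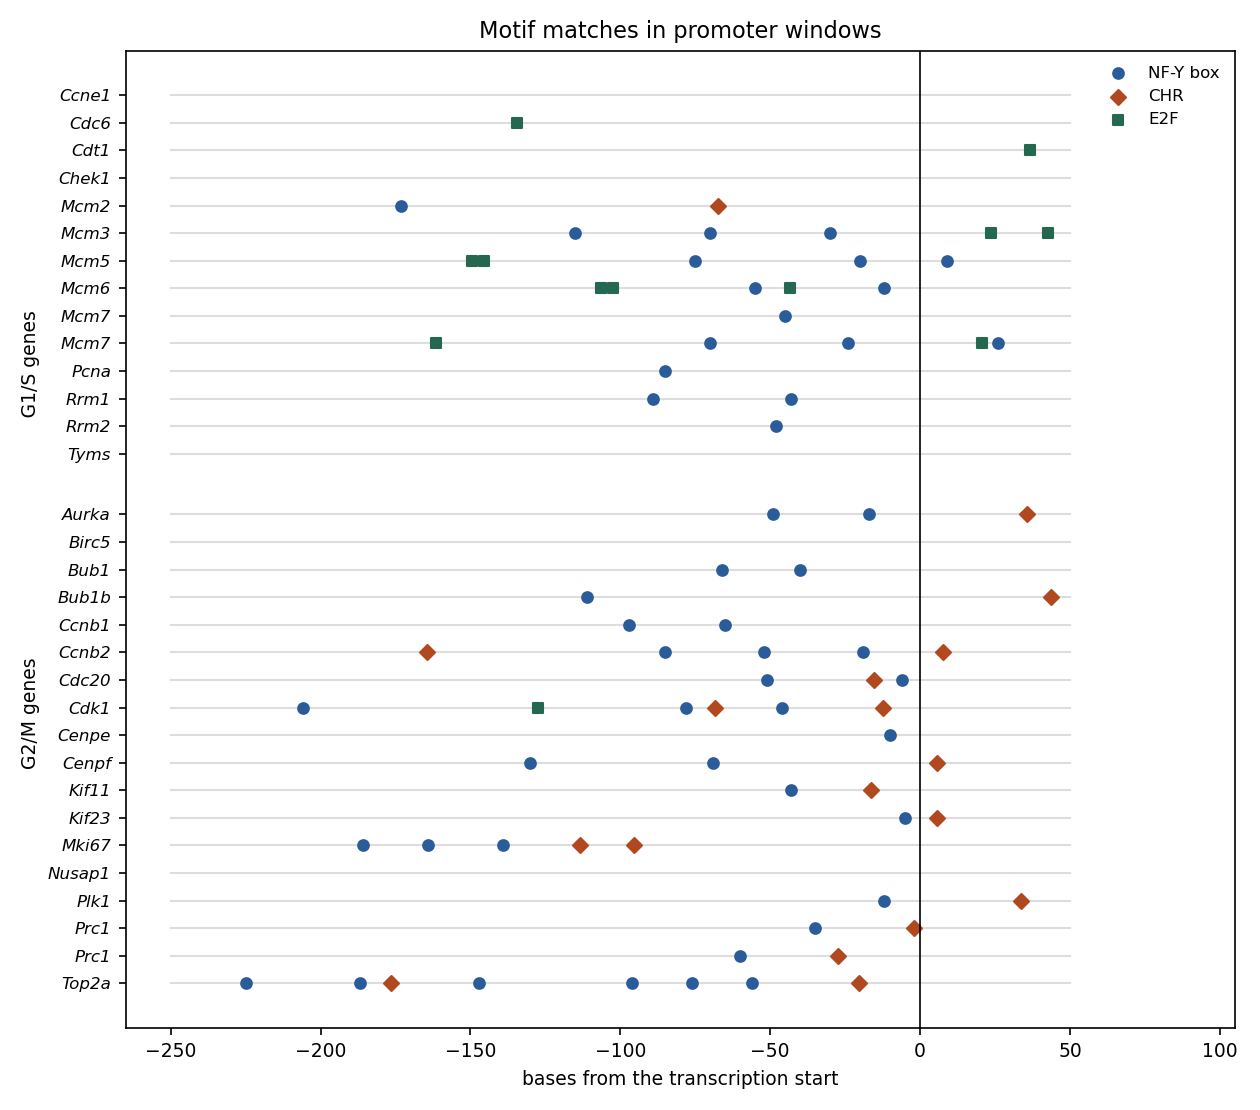
Positions of E2F (squares), CHR (diamonds) and NF-Y box (CCAAT; circles) matches in the promoter windows of 30 genes, in bases from the transcription start (vertical line at 0), 1 grey line per window. E2F matches lie in 6 G1/S windows and 1 G2/M window, and CHR matches in 13 G2/M windows and 1 G1/S window.

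Liver neutrophils had more RNA than blood neutrophils of several replication genes, while the 2 classes did not move as wholes. Of 29 genes with enough counts for the test, 8 were higher in liver, 2 were lower and 19 did not pass. The 6 higher G1/S genes were Pcna, Cdt1, Mcm3, Mcm6, Rrm1 and Chek1, the 2 higher G2/M genes were Cenpe and Foxm1, and the lower ones were Mcm4 (G1/S) and Kif23 (G2/M). A gene passed at an adjusted p under 0.05 in edgeR's quasi-likelihood test, adjusted by Benjamini-Hochberg over 13458 genes. Over all of those genes 17.4% passed as higher and 14.2% as lower. The higher calls were 6 of 14 tested G1/S genes and 2 of 15 tested G2/M genes. The median log2 fold change was 1.26 over the tested G1/S genes, 0.93 over the tested G2/M genes and 0.041 over all genes tested. Since 11 of the 29 reached the count minimum in all 3 liver libraries but not in all 3 blood libraries, and none the other way round, these medians, the call counts and the counts of groups without overlap are shaped by the filter and are given as description. Mcm3, Chek1, Cenpe and Foxm1 were among the 11, so both higher G2/M calls were. Likewise as description, all 3 liver libraries lay above all 3 blood libraries, by CPM (counts scaled to the depth of each library), for 9 tested G1/S and 6 tested G2/M genes, beside 25.8% of all genes tested. They lay below for 1 gene of each class, beside 22.7% of all genes. In bulk RNA, more cells of a type with such a transcript and more transcript per cell cannot be told apart.

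**Figure D2:**
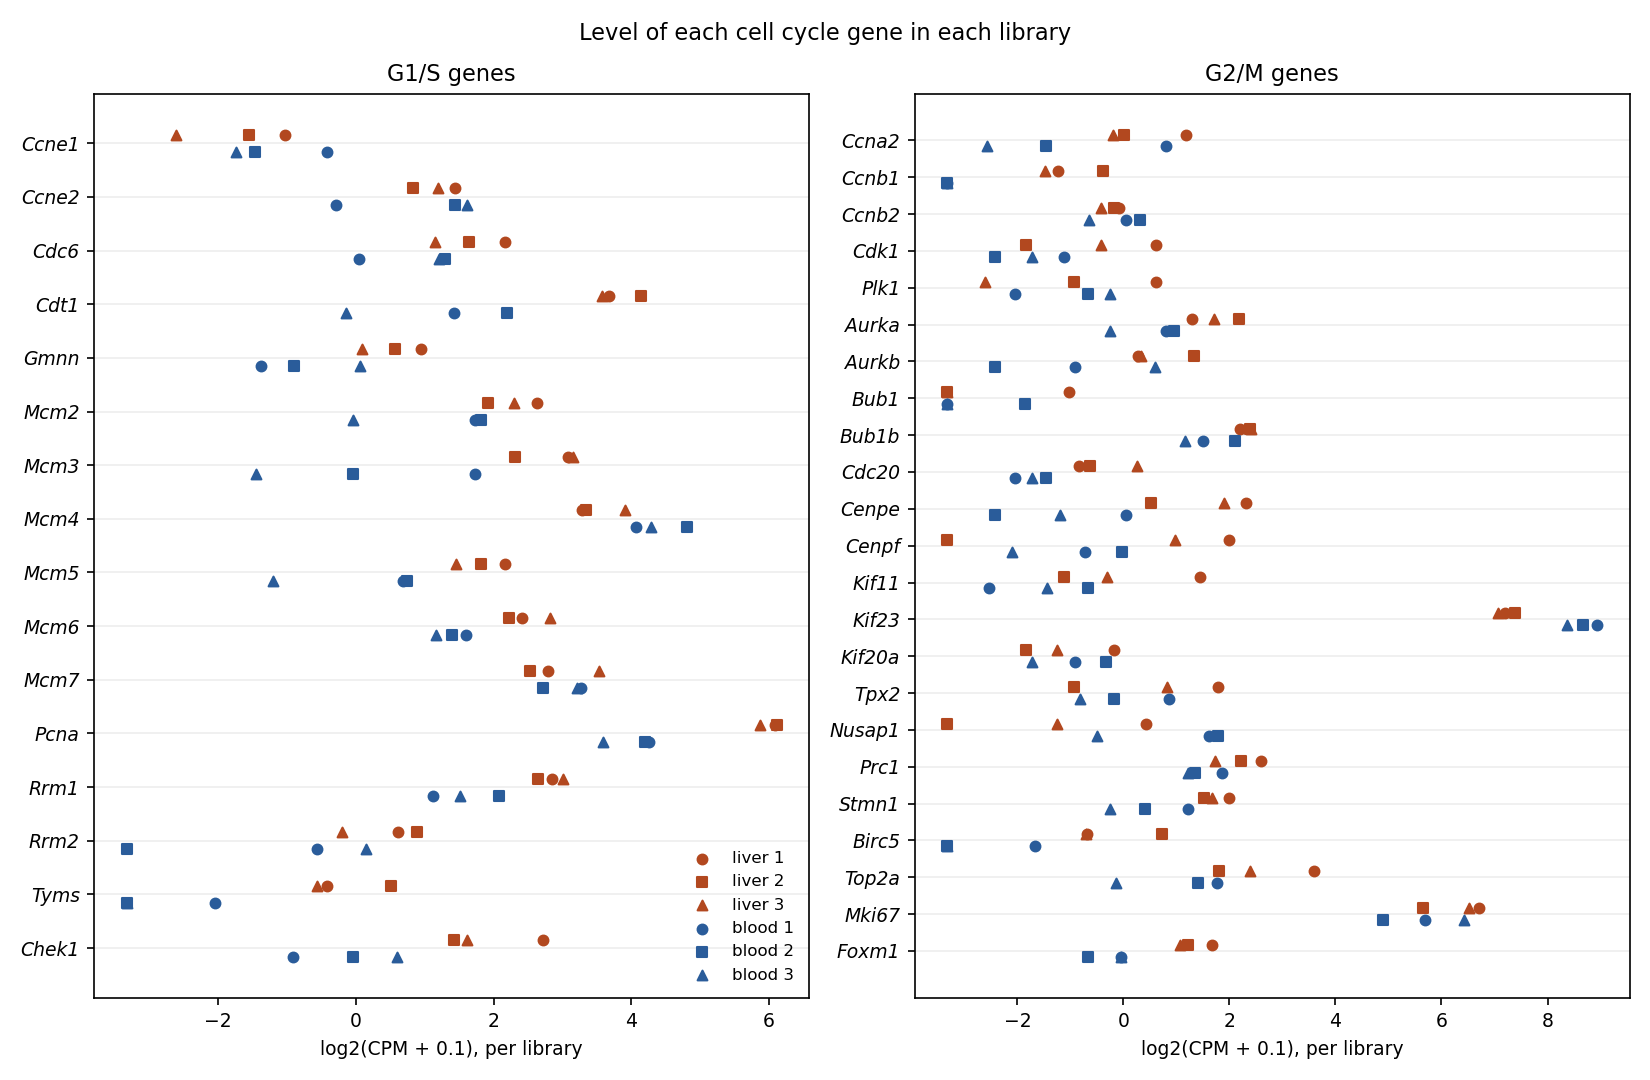
Level of each of the 39 genes in each library, as log2(CPM + 0.1) on the horizontal axis, for liver (orange) and blood (blue). Marker shape gives the library number, which was not used to pair samples in the main test. Pcna in liver lies well to the right of blood, and Kif23 in liver lies to the left of blood.

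Among the G1/S genes the smallest adjusted p was that of Pcna, the sliding clamp that holds DNA polymerase on its template (chr2:132249162-132253314, minus strand, GRCm38). Raw counts of Pcna were 1034, 1144 and 907 in liver and 264, 209 and 178 in blood, and the groups did not overlap. The liver mean was 64.9 ± 5.73 CPM and the blood mean 16.4 ± 3.88 CPM (SD, n = 3 libraries per group), for a log2 fold change of 1.98 ± 0.23 (SE; 3.96-fold) with an edgeR adjusted p of 0.000576. Per kilobase of exon, Pcna stood at 27.0 CPM in liver, above Kif23 at 18.9 and Mki67 at 8.16. In blood the same unit gave 6.84 for Pcna, 51.8 for Kif23 and 5.53 for Mki67.

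Origin licensing genes differed among themselves. Cdt1, which brings the MCM helicase to origins (chr8:122568015-122573554, plus strand), had 195, 291 and 183 counts in liver and 36, 51 and 12 in blood. Every liver library was above every blood library, and the log2 fold change was 2.43 ± 0.53 (5.39-fold; edgeR adjusted p = 0.00858). Geminin (Gmnn), the inhibitor of Cdt1, had 28, 23 and 15 counts in liver and 4, 5 and 14 in blood, at 1.30 ± 0.69 (adjusted p = 0.178). Cdc6, which loads the helicase together with Cdt1, had 67, 50 and 33 counts in liver and 13, 27 and 33 in blood, groups that overlapped by CPM, at 0.79 ± 0.53 (adjusted p = 0.289). Of Cdt1, its inhibitor and Cdc6, Cdt1 alone passed the test, and the difference between their fold changes was not tested.

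The 6 subunits of the MCM2-7 helicase did not move together. Mcm3 (chr1:20802968-20820312, minus strand) had 128, 81 and 137 counts in liver and 45, 10 and 4 in blood, at a log2 fold change of 2.32 ± 0.73 (5.00-fold; edgeR adjusted p = 0.0389). Mcm6 (chr1:128331590-128359664, minus strand) had 80, 76 and 108 counts in liver and 41, 29 and 32 in blood, at 1.13 ± 0.39 (2.19-fold; edgeR adjusted p = 0.0493). In both genes the groups did not overlap, and the blood libraries of Mcm3 were spread over more than those of Mcm6. Mcm4 (chr16:15623897-15637400, minus strand) went the other way, with 147, 167 and 232 counts in liver and 232, 320 and 290 in blood. Its groups did not overlap by CPM (11.5 ± 2.95 in liver, 21.4 ± 5.92 in blood), and it fell by 0.89 ± 0.30 on the log2 scale (95% interval -1.57 to -0.21; edgeR adjusted p = 0.0483).

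Mcm2 and Mcm5 were higher in every liver library without passing the test, and Mcm7 overlapped between the groups. Mcm5 had 67, 57 and 41 counts in liver and 21, 18 and 5 in blood (log2 fold change 1.61 ± 0.62, edgeR adjusted p = 0.0727), and it passed with limma-voom alone of the alternatives (adjusted p = 0.0496; 0.0496 to 0.192 over them). Mcm2 had 93, 61 and 75 counts in liver and 45, 39 and 13 in blood (0.96 ± 0.54, adjusted p = 0.199). Mcm7 had 104, 94 and 179 counts in liver and 133, 74 and 136 in blood, with a log2 fold change of -0.073 and a 95% interval of -0.88 to 0.73. Exons of Mcm7 overlap those of Ap4m1 and Cops6 on the other strand, and whether the counting used strand is not given in the sources used here. If it did not, reads of such partners cannot be told apart. The summed level of the 6 subunits was 40.8 ± 8.69 CPM in liver and 37.4 ± 5.36 CPM in blood, and the groups overlapped. Per kilobase of exon, Mcm4 was the highest subunit in both groups, at 3.21 CPM for liver and 5.96 CPM for blood.

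Of the genes that supply deoxynucleotides, Rrm1 passed the test. Rrm1, the large subunit of ribonucleotide reductase (chr7:102441695-102469771, plus strand), had 109, 102 and 123 counts in liver and 29, 47 and 41 in blood. The groups did not overlap, and the log2 fold change was 1.24 ± 0.39 (2.37-fold; edgeR adjusted p = 0.0345). Rrm2, the small subunit, had 22, 29 and 12 counts in liver and 8, 0 and 15 in blood, which overlapped, at 1.27 ± 0.94 (adjusted p = 0.327). The estimates of the 2 subunits were of like size, with a wider error for Rrm2. Tyms, which makes thymidylate, had 10, 22 and 9 counts in liver and 2, 0 and 0 in blood, and was too low for the test. It was called with the DESeq2 Wald test and with no low-count filter.

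Chek1, the kinase that restrains the cycle when forks stall (chr9:36708482-36727065, minus strand), had 99, 43 and 46 counts in liver and 6, 10 and 21 in blood. All liver libraries were above all blood libraries, liver 1 being the highest, and the log2 fold change was 2.13 ± 0.61 (4.37-fold; edgeR adjusted p = 0.0262). The E-type cyclins, which drive entry into S phase with CDK2, overlapped between the groups. Ccne2 had 40, 28 and 34 counts in liver and 10, 30 and 44 in blood (log2 fold change 0.042, 95% interval -1.29 to 1.38). Ccne1 had 6, 4 and 1 counts in liver and 9, 3 and 3 in blood, near the level of 3 counts (0.181 to 0.263 CPM over the 6 libraries), and was not tested.

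Calls among the G1/S genes differed in how much they rested on single libraries. Pcna and Cdt1 passed whichever of the 6 libraries was left out. Mcm3 held its call without blood 1 but not when any of the other 5 libraries was left out (edgeR adjusted p 0.0548 to 0.117). Rrm1 held it without blood 2 but not when any of the other 5 was left out (adjusted p 0.0581 to 0.116). Chek1 did not pass without liver 1, blood 1 or blood 2 (adjusted p 0.0732 to 0.121), and Mcm4 passed without liver 3 or blood 1 and failed without each of the other 4 (adjusted p 0.0645 to 0.148). Mcm6 did not pass when any of the 6 was left out (adjusted p 0.0667 to 0.154).

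**Figure D3:**
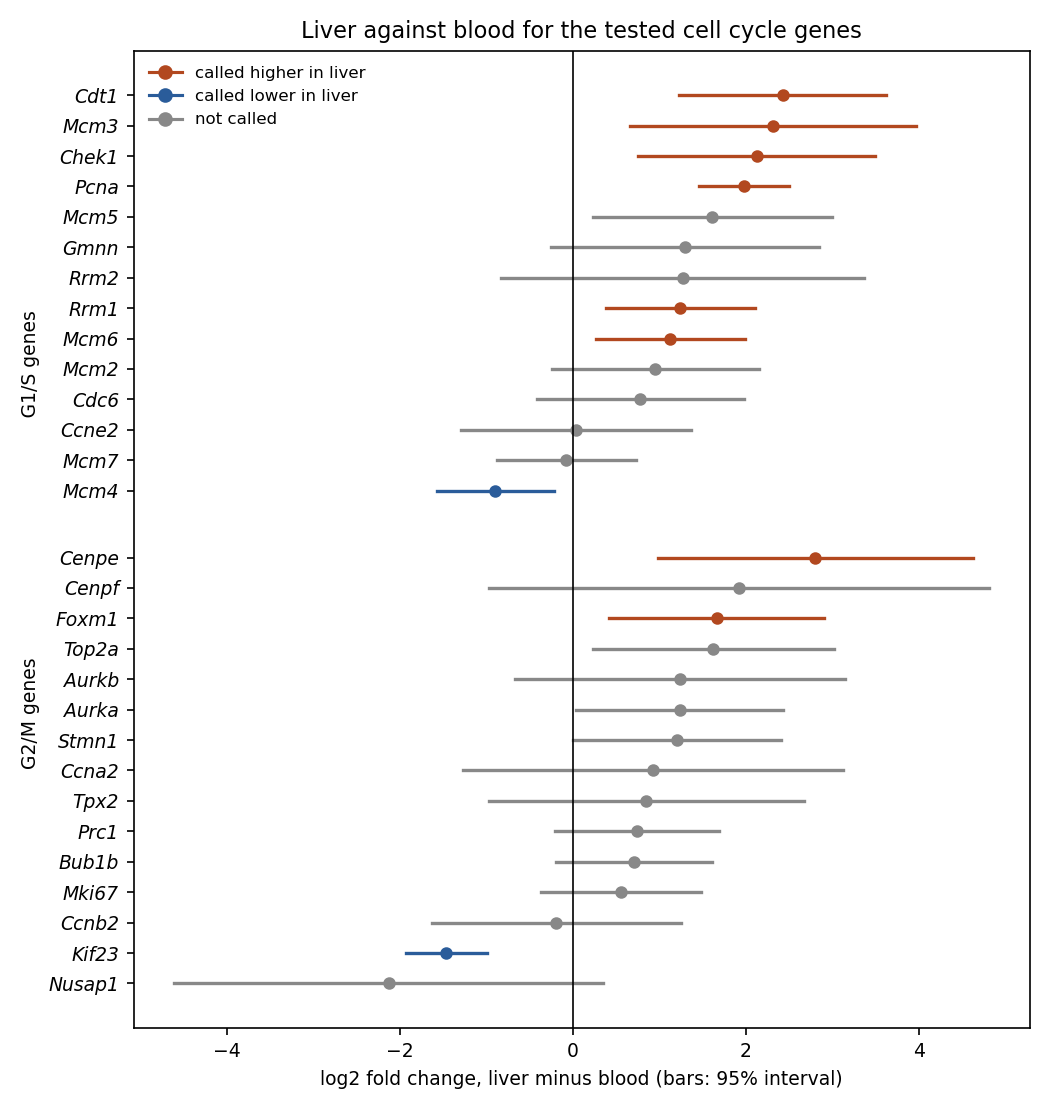
Log2 fold change, liver minus blood, with its 95% interval from the edgeR fit, for the 29 tested genes, ordered within each class; orange genes passed as higher in liver, blue as lower, grey did not pass. Pcna (1.98) and Kif23 (-1.46) have the narrowest intervals among the called genes.

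Kif23 set the G2/M class apart. Kif23, a kinesin of the centralspindlin complex that acts in cytokinesis (chr9:61915905-61946774, minus strand), had 2235, 2764 and 2093 counts in liver and 6825, 4670 and 4891 in blood. The groups were far apart, with 149 ± 16.1 CPM for liver and 409 ± 81.1 CPM for blood. It fell by 1.46 ± 0.21 on the log2 scale, being 2.75-fold higher in blood (edgeR adjusted p = 0.00133), and passed whichever library was left out. No gene of the annotation overlaps its exons. Its promoter stretch, printed above, has a CHR and a CCAAT match like those of Mki67 and Top2a, whose estimates went the other way without passing.

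The 2 other spindle motors were near the floor. Kif11, which pushes spindle poles apart, had 40, 6 and 11 counts in liver and 1, 6 and 4 in blood. It appears in 2 rows with identical values, so its reads may be split between them. Kif20a, another kinesin of the central spindle, had 12, 3 and 5 counts in liver and 6, 8 and 3 in blood, and its exons overlap those of Cdc23 on the other strand. Neither reached the count minimum.

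Mki67, the gene of the proliferation antigen Ki-67, did not pass the test. Its counts were 1594, 836 and 1429 in liver and 715, 340 and 1276 in blood, so that blood 3 was above liver 2. The means were 82.1 ± 28.2 CPM in liver and 55.6 ± 28.2 CPM in blood, and the log2 fold change was 0.56 with a 95% interval of -0.36 to 1.48 (edgeR adjusted p = 0.321). Top2a, the topoisomerase that untangles chromosomes, had 184, 56 and 80 counts in liver and 46, 29 and 12 in blood. The groups did not overlap, with liver 1 far above the rest, and the log2 fold change was 1.63 ± 0.62 (edgeR adjusted p = 0.0731). Top2a passed in 3 of 16 alternatives (adjusted p 0.00985 to 0.317 over them).

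Cenpe and Foxm1 were the G2/M genes that rose. Cenpe, a kinetochore motor that aligns chromosomes (chr3:135212537-135273611, plus strand), had 75, 22 and 56 counts in liver and 13, 1 and 5 in blood. The log2 fold change was 2.81 ± 0.81 (6.99-fold; edgeR adjusted p = 0.0268), and the call held without liver 2 or blood 1 and failed without each of the other 4 (adjusted p 0.0649 to 0.0998). Foxm1, a transcription factor of G2/M genes (chr6:128362967-128376146, plus strand), had 47, 37 and 31 counts in liver and 12, 6 and 13 in blood. Its groups were well apart, and the log2 fold change was 1.67 ± 0.56 (3.18-fold; edgeR adjusted p = 0.0450), but the call was lost when any library was left out (adjusted p 0.0733 to 0.140). Exons of Foxm1 overlap those of Tex52 and Gm44596 on the same strand.

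The cyclins and the kinase that start mitosis were few in counts in both groups. Ccnb1 (cyclin B1) had 5, 11 and 4 counts in liver and 0, 0 and 0 in blood, at least 5.65-fold higher in liver when blood is set at 3 counts over the group. Cdk1 had 22, 3 and 10 counts in liver and 5, 1 and 3 in blood. Neither reached the count minimum of the test. Ccnb2 (cyclin B2) had 13, 13 and 10 counts in liver and 13, 13 and 8 in blood, with a 95% interval of the log2 fold change of -1.63 to 1.25. Ccna2 (cyclin A2) had 33, 15 and 12 counts in liver and 23, 3 and 1 in blood, which overlapped (0.93 ± 0.98, edgeR adjusted p = 0.499), and its exons overlap those of Exosc9. Of the 4 genes, then, Ccnb1 was seen in liver alone, while Cdk1 by CPM and the other 2 cyclins overlapped.

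None of the 5 mitotic kinases passed the test. Aurka, which acts at spindle poles, had 36, 74 and 49 counts in liver and 23, 21 and 11 in blood, without overlap (log2 fold change 1.24 ± 0.54, edgeR adjusted p = 0.105). Bub1b, of the spindle checkpoint, had 69, 85 and 81 counts in liver and 38, 48 and 32 in blood, also without overlap (0.71 ± 0.40, adjusted p = 0.204). Aurkb, the kinase of the chromosome passenger complex, had 17, 40 and 18 counts in liver and 6, 1 and 21 in blood, which overlapped (1.24 ± 0.85, adjusted p = 0.295). The other two kinases were under the minimum. Plk1 had 22, 7 and 1 counts in liver and 2, 6 and 11 in blood, and Bub1, whose product recruits checkpoint proteins, had 6, 0 and 0 in liver and 0, 2 and 0 in blood.

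Most of the remaining G2/M genes were low and did not pass. Birc5 (survivin, of the chromosome passenger complex) had 8, 26 and 8 counts in liver and 3, 0 and 0 in blood, and Cdc20, which activates the anaphase-promoting complex, had 7, 9 and 17 in liver and 2, 3 and 3 in blood. Both were above blood in every liver library and under the count minimum. Cenpf, a kinetochore protein, had 59, 0 and 29 counts in liver and 7, 10 and 2 in blood (log2 fold change 1.93 ± 1.27, edgeR adjusted p = 0.280). Tpx2, which nucleates spindle microtubules, had 51, 7 and 26 counts in liver and 24, 9 and 7 in blood (0.85 ± 0.81, adjusted p = 0.454). In both, liver 2 was the low liver library and liver 1 the high one.

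Proteins that bind microtubules gave 3 estimates above 0 and 1 below. Stmn1, which destabilises microtubules, had 59, 46 and 48 counts in liver and 31, 14 and 11 in blood, without overlap (log2 fold change 1.21 ± 0.54, edgeR adjusted p = 0.114). Prc1, which bundles them at the central spindle, had 91, 76 and 50 counts in liver and 49, 28 and 33 in blood, with overlap by CPM (0.74 ± 0.42, adjusted p = 0.207). Nusap1, a spindle-associated protein, had 19, 0 and 5 counts in liver and 41, 38 and 9 in blood (-2.13 ± 1.10, adjusted p = 0.169). Exons of Nusap1 and Prc1 overlap those of Oip5 and Rccd1 on the other strand, as those of Cdc20, Plk1 and Ccne2 do with Elovl1, Gm44985 and Ints8.

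Summed over all genes of a class, G1/S transcripts were higher in liver and G2/M transcripts were lower, and in each class 1 or 2 genes made up much of the sum. The 16 G1/S genes summed to 145, 137 and 137 CPM in liver and 64.5, 76.4 and 56.5 CPM in blood, and Pcna alone was 42.5% to 50.4% of the liver sums and 21.2% to 29.4% of the blood sums. The mean sums were 139.9 ± 4.87 and 65.8 ± 10.03 CPM, a log2 ratio of 1.09. Without Pcna the sums were 75.0 ± 6.12 CPM in liver and 49.4 ± 7.56 CPM in blood, a log2 ratio of 0.60, and the groups did not overlap.

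The 23 G2/M genes summed to 307, 249.1 and 262 CPM in liver and 567, 461 and 427 CPM in blood. Kif23 was 47.5% to 66.8% of those sums in liver and 77.0% to 88.8% in blood. The log2 ratio of the mean sums was -0.83 with Kif23 and 0.72 without it, when the sums were 124 ± 39.4 CPM in liver and 75.3 ± 23.5 CPM in blood and overlapped. Without Kif23 and Mki67, the remaining 21 genes summed to 41.6 ± 13.5 CPM in liver and 19.7 ± 6.28 CPM in blood, a log2 ratio of 1.08, and the groups did not overlap. The direction of the G2/M sum thus turned with the removal of 1 gene.

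**Figure D4:**
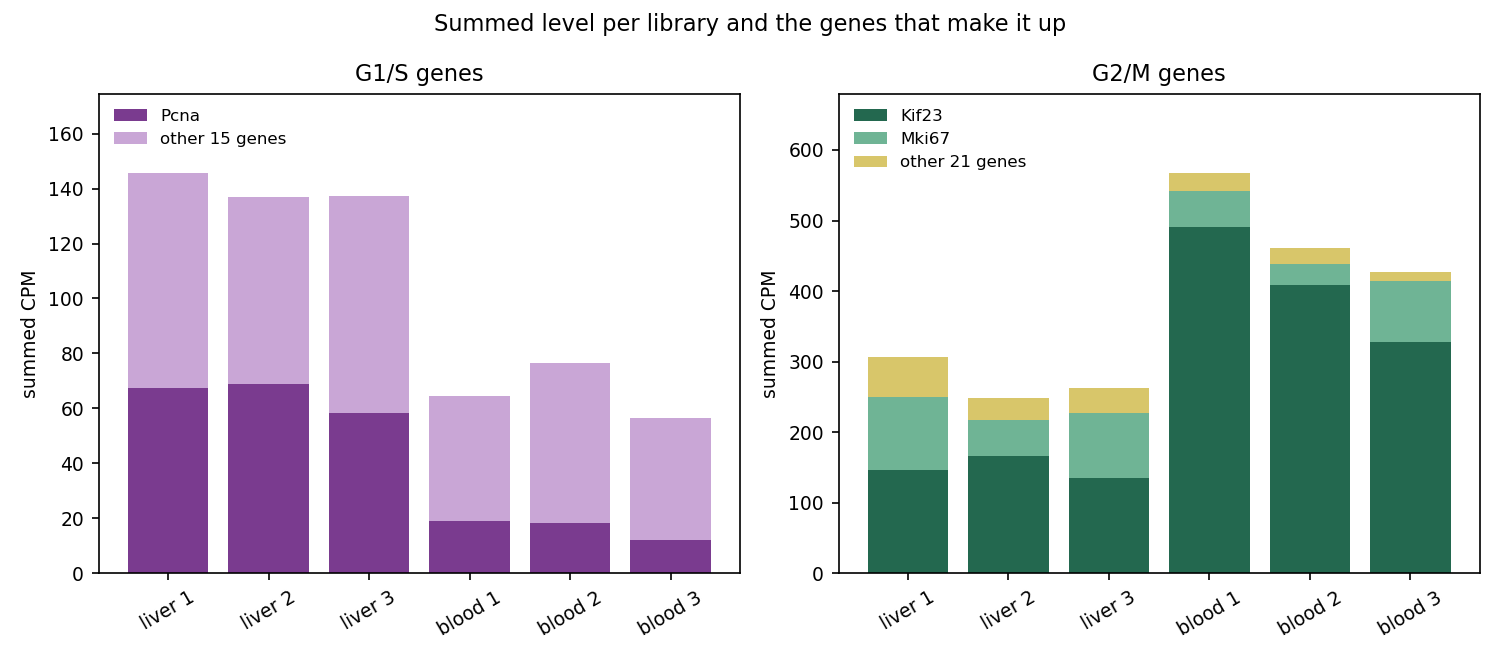
Summed CPM per library of the 16 G1/S genes (left) and the 23 G2/M genes (right), with the share of Pcna, and of Kif23 and Mki67, in separate colours. Kif23 is the largest part of each G2/M bar in blood and sets the direction of the G2/M sum.

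Liver 1 was the highest liver library for 16 of the 23 G2/M genes, liver 2 for 5 and liver 3 for 2. For the 16 G1/S genes the numbers were 7, 4 and 5. In blood, where 22 G2/M genes had counts, blood 1 was the highest for 9, blood 2 for 9 and blood 3 for 4. Since 8 of the 23 G2/M genes were under the count minimum, the highest library rests on few counts for them. The share of all genes that were highest in each library was not determined, so these numbers are description. High values of liver 1 in Top2a, Cenpf, Kif11, Plk1 and Tpx2 widened the spread of those genes in liver.

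Markers of other cells also moved with the groups, and their part in the results was not tested. Neutrophil markers were abundant in every library, but all 8 were lower in liver, with summed levels of 6643 to 11916 CPM in liver and 19228 to 30128 CPM in blood. The 6 monocyte markers summed to 1028 to 1480 CPM in liver and 356 to 452 CPM in blood (4 higher), the 9 markers of Kupffer cells and macrophages to 164 to 433 and 41.0 to 159 CPM (4 higher), and the 5 of dendritic cells to 31.5 to 84.6 and 7.01 to 16.2 CPM (3 higher). Hepatocyte markers (13.5 to 199 CPM in liver, 0.350 to 3.45 in blood; 3 of 5 higher) and endothelial markers (11.9 to 34.1 and 0.263 to 2.95 CPM; 4 of 5 higher) also held higher calls. Of these lists none but that of neutrophil precursors had a marker at 0 in all 6 libraries. Liver 3 had the highest liver sums of the Kupffer cell, monocyte, dendritic cell, hepatocyte, endothelial and stellate cell lists. Liver 1, the highest liver library for most G2/M genes, also had the highest liver sums of immature neutrophil markers (2527 CPM, beside 1198 in liver 2 and 990 in liver 3) and of precursor markers (21.7, beside 16.6 and 13.4 CPM), and of the B cell, T and NK cell and biliary lists.

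The markers of dividing neutrophil precursors ranged from no counts to well above the floor. The 8 summed to 13.4 to 21.7 CPM in liver and 8.67 to 16.7 CPM in blood. Most of this was Gfi1 (means of 8.47 CPM in liver and 2.20 in blood) and Cebpe (4.91 and 10.1 CPM), described below. Fcnb had 23, 7 and 1 counts in liver and 0, 3 and 0 in blood. Ctsg had 8, 0 and 0 counts in liver and 6, 0 and 0 in blood. Ms4a3 was at 0 in all 6 libraries, Elane had 0, 3 and 0 counts in liver and 0, 1 and 0 in blood, and Mpo had 52, 38 and 3 in liver and 1, 2 and 0 in blood. Of the 3 that could be tested, Gfi1, a transcription factor of granulocytes, was higher in liver, with 123, 150 and 130 counts there and 36, 16 and 39 in blood (log2 fold change 1.93 ± 0.38, edgeR adjusted p = 0.00505). Cebpe, another such factor, had 114, 43 and 73 counts in liver and 179, 61 and 178 in blood (-1.04 ± 0.47, adjusted p = 0.119), and Prtn3 did not pass either (0.33 ± 0.96). The 5 markers of immature neutrophils summed to 990 to 2527 CPM in liver and 2069 to 2819 CPM in blood. Lcn2 was the lower call among them (813 ± 411 CPM in liver, 2080.5 ± 454 in blood; -1.36 ± 0.40, adjusted p = 0.0292). The other 4 had positive estimates that did not pass (Camp 1.03, Chil3 0.96, Ltf 0.61, Ngp 0.54), and liver 1 was their highest liver library, with 722, 71 and 69 counts of Camp and 9377, 1267 and 1840 of Ngp in liver. Erythroid markers (6; 120 to 1410 CPM in liver, 200 to 14973 in blood; 1 higher) were spread widely within both groups. The sum of the platelet markers (4; 6.07 to 14.3 and 33.5 to 191 CPM; 3 lower) was above liver in every blood library. Pf4, the platelet marker that was not called, overlapped between the groups. B and plasma cell markers (6; 9.997 to 15.9 and 9.33 to 85.6 CPM; 2 lower), T and NK cell markers (7; 3.73 to 8.75 and 5.52 to 10.3 CPM; 1 lower), biliary markers (4; 3.09 to 5.22 and 8.50 to 12.8 CPM; 1 lower) and stellate cell markers (4; 3.07 to 5.34 and 0 to 1.276 CPM; none called of 1 tested) were low. Jchain, Krt19, Sox9, Col3a1, Dcn and Lrat were at 0 in blood. Krt7 was the lower biliary call and most of the biliary sum (3.12 ± 0.94 CPM in liver, 10.4 ± 2.17 in blood). Krt19, Epcam and Sox9 went the other way, with 17, 19 and 14 counts over the liver libraries and 0, 3 and 0 over blood. These were too few for the test.

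A wider list of 240 other cell cycle genes, grouped by role, gave 37 higher and 17 lower calls among 188 tested, with a median log2 fold change of 0.37. Over all genes tested, 17.4% were higher and 14.2% lower, and the share of higher calls in the list was near the former. The count minimum could be reached through the liver libraries alone here too. Lig1, for one, reached it in all 3 liver libraries but not in blood 3 (81, 70 and 74 counts in liver, 16, 24 and 8 in blood). Call counts and medians of this list and its roles are therefore shaped by the filter and given as description. In the order of the cycle, the control of the G1 kinases gave calls in both directions. Ccnd1 (cyclin D1) was higher in liver, at 8.56 ± 2.82 against 1.57 ± 0.61 CPM (log2 fold change 2.44 ± 0.45, edgeR adjusted p = 0.00399). Ccnd3 (cyclin D3) fell by 1.51 ± 0.19 on the log2 scale (adjusted p = 0.000698), with 418 ± 55.5 CPM for blood libraries and 146 ± 7.96 CPM for liver libraries. Ccnd2 had 0.37 ± 0.22 (adjusted p = 0.226) and did not pass.

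The kinases that work with D-type cyclins were higher in liver, and Cdk2, the partner of cyclin E, did not pass. Cdk6 stood at 46.1 ± 8.89 CPM for liver and 19.4 ± 6.46 CPM for blood (log2 fold change 1.24 ± 0.28, edgeR adjusted p = 0.00949). Cdk4 stood at 5.92 ± 0.66 and 1.43 ± 1.26 CPM (2.05 ± 0.64, adjusted p = 0.0359), which did not pass without liver 1, 2 or 3 or blood 2 or 3. Cdk2 was at 13.6 ± 1.283 and 13.9 ± 1.27 CPM, with a 95% interval of the log2 fold change of -0.59 to 0.53. Ccnf (cyclin F, a ubiquitin ligase subunit) was higher by 4.25 ± 0.50 on the log2 scale (adjusted p = 0.000559), with 107, 178 and 88 counts in liver and 4, 6 and 6 in blood. Ccng2, a cyclin linked to cell cycle arrest, was lower at -0.996 ± 0.22 (adjusted p = 0.00875).

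The inhibitors of these kinases also split. Cdkn1a (p21) had 4001, 1263 and 1391 counts in liver and 505, 368 and 122 in blood, a log2 fold change of 2.48 ± 0.71 (edgeR adjusted p = 0.0405). All liver libraries were above blood, but liver 1 was far above the others, and Cdkn1a did not pass without liver 1, 2 or 3 or blood 1 or 2. Cdkn1b (p27) had 2241, 2003 and 2006 counts in liver and 6693, 8065 and 5580 in blood, and it fell by 1.98 ± 0.26 (adjusted p = 0.000835). Cdkn2d (p19) fell by 1.80 ± 0.32 (adjusted p = 0.00358). Cdkn1c (p57) and Cdkn2c (p18) did not pass, at 0.995 ± 0.73 and 0.48 ± 0.59. Cdkn2a had no counts in any library, and Cdkn2b had 2, 0 and 2 in liver and 0, 3 and 1 in blood.

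Pocket proteins and E2F factors, which hold back and drive the G1/S genes, were listed in 1 role with genes of MuvB and B-MYB. That role gave 1 higher and 3 lower calls of 17 tested, beside 17.4% higher and 14.2% lower over all genes tested. Rbl2 (p130) was lower in liver at -0.97 ± 0.21 (edgeR adjusted p = 0.00731), while Rb1 (-0.18 ± 0.17) and Rbl1 (0.094 ± 0.38) did not pass. E2f2 was at 27.8 ± 3.05 CPM for liver and 83.5 ± 5.69 CPM for blood, a fall by 1.58 ± 0.19 (adjusted p = 0.000571), and its dimer partner Tfdp1 fell by 1.91 ± 0.31 (adjusted p = 0.00242). E2f6, a repressor of the family, was higher at 2.15 ± 0.74 (adjusted p = 0.0496), which did not pass without liver 1, 2 or 3 or blood 1 or 2. E2f1 was above blood in every liver library without passing (1.74 ± 0.80, adjusted p = 0.121). With blood 1, its highest blood library, left out E2f1 passed, at 3.09 (adjusted p = 0.0271). E2f3, E2f4 and E2f8 overlapped between the groups, with log2 fold changes of 0.19, -0.036 and -0.19. E2f5 and E2f7 were not tested, E2f7 with 14, 16 and 3 counts in liver and 0, 0 and 0 in blood.

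**Figure D5:**
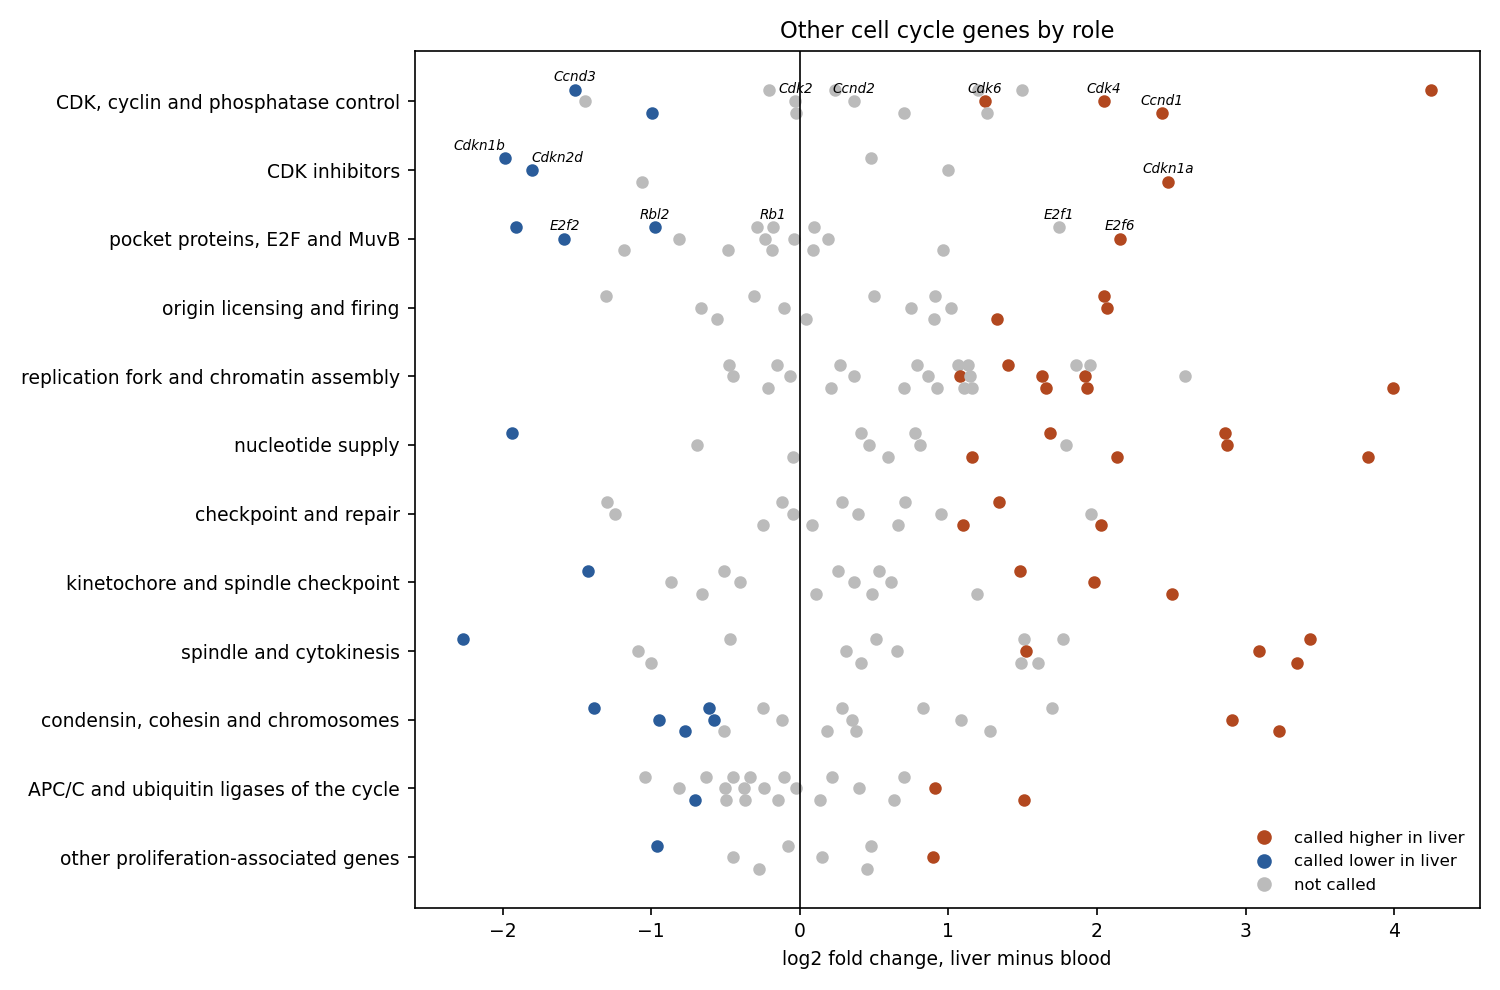
Log2 fold change, liver minus blood, of the 188 tested genes of the wider list in 12 roles, offset vertically for legibility; orange passed as higher in liver, blue as lower, grey did not pass. No gene of the replication fork row passed as lower, while the rows of CDK inhibitors and of pocket, E2F and MuvB proteins hold calls on both sides.

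Of the replication roles, fork and chromatin assembly genes gave 7 higher and 0 lower calls of 27 tested, with a median log2 fold change of 1.08. As above, these counts stand beside 17.4% higher and 14.2% lower over all genes tested and are shaped by the filter. Chaf1b, of the CAF-1 histone chaperone, was at 15.6 ± 4.87 CPM for liver and 0.99 ± 0.52 CPM for blood (log2 fold change 3.99 ± 0.47, edgeR adjusted p = 0.000559). The clamp loader subunit Rfc5 (1.93), the ligase Lig1 (1.92) and the polymerase epsilon subunit Pole4 (1.65) followed. Nucleotide supply genes gave 6 higher and 1 lower call of 15. Impdh1, of guanine nucleotide synthesis, had 3.82 ± 0.48 (adjusted p = 0.000784), with Nme1 at 2.88 and Paics at 2.14, while Dck, a salvage kinase, was at -1.93 ± 0.30 (adjusted p = 0.00202). Licensing and firing genes gave 3 higher and 0 lower of 14, namely Dbf4 (2.07), Mcm10 (2.05) and Orc6 (1.33). Checkpoint and repair genes gave 3 higher and 0 lower of 15, namely Blm (2.03), Atm (1.34) and Msh6 (1.10).

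The mitotic roles held calls in both directions, to be read beside 17.4% higher and 14.2% lower over all genes tested. Spindle and cytokinesis genes gave 4 higher and 1 lower of 16, with the motor Kif4 (3.44), Dlgap5 (3.35), Ckap2l (3.09) and the centriole kinase Plk4 (1.52) higher and the motor Kifc1 (-2.27) lower. In blood, Kif4 and Dlgap5 stood at 0.125 and 0.331 CPM, near the level of 3 counts, so their fold changes rest on few blood counts. Kinetochore genes gave 3 higher and 1 lower of 15, with Cenpn (2.51), Dsn1 (1.98) and Cenpc1 (1.48) higher and Mis12 (-1.43) lower. Condensin, cohesin and chromosome genes gave 2 higher and 5 lower of 18. The condensin subunits Ncaph (3.22, with 0.156 CPM in blood) and Ncapg2 (2.91) were higher, and Hmgb2 (-1.38), Smc4 (-0.95), Smc3 (-0.77) and Stag2 (-0.61) were the 4 furthest below 0 of the lower ones. Genes of the anaphase-promoting complex and of other ubiquitin ligases of the cycle gave 2 higher (Anapc10 at 1.51 and Cdc27 at 0.91) and 1 lower (Anapc2 at -0.71) of 21. In the group of other proliferation-associated genes, Tuba1b was higher (0.90) and Arhgap11a was lower (-0.96), of 8 tested.

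Of the 48 called genes of the wider list that the naming rule picked, 27 passed whichever library was left out and 21 lost the call without at least 1 library. The 21 were Cdk4, Cdkn1a, E2f6, Lig1, Pole4, Mcm10, Orc6, Blm, Atm, Kif4, Plk4, Kifc1, Dsn1, Cenpc1, Mis12, Ncaph, Stag2, Tuba1b, Anapc10, Cdc27 and Anapc2. Ccnd1, Ccnd3, Cdk6, Cdkn1b, Cdkn2d, Rbl2, E2f2, Tfdp1, Chaf1b, Impdh1 and Ccnf were among the 27. Exons of Ccnd1, Ccnd3, Cdk4, Cdk6, Cdkn1a, Ckap2l, Tuba1b, Stag2, Paics, Rbl2, Rfc5, Lig1, Orc6, Mis12, Msh6 and Kif4 overlap those of a gene on the other strand. If the counting did not use strand, reads of that gene cannot be told apart from theirs.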

How the data were processed

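Expected counts for each gene were deposited for 6 libraries; the authors' tools, per the submitters' processing notes, were FastQC 0.11.5, STAR, RSEM and limma, with build GRCm38, and no further settings are given in the sources used here. Per the labels' protocols, libraries were made with a stranded total-RNA pico-input kit and read as paired ends. Rows were matched by identifier to GENCODE M21 (98.9% of 53090); for 213 repeated symbols the row with the largest sum was kept for the genes described. Expected counts were rounded. Genes passing filterByExpr (minimum count 10, total 15) were scaled with TMM and tested with edgeR 4.0.16 in R 4.3.3 (quasi-likelihood F test with robust estimation, liver minus blood, Benjamini-Hochberg over 13458 rows, adjusted p under 0.05). CPM uses TMM-scaled library sizes. Standard errors derive from the F statistic. Floors of 3 counts cover counting error only, since no molecular identifiers are in the files. Replicates of a group differed beyond counting noise (chi-square per degree of freedom 52.1 to 79.0).

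The genes and lists were chosen with earlier results of these data known. Every gene of the 39 is named; of the wider list, the 4 called genes with the largest absolute log2 fold change in each direction per role, plus cyclins D, their kinases, CDK inhibitors, pocket proteins and E2F factors whatever their values; 1 gene the rule picked is not reported here. On data simulated for the liver and blood comparison (13458 genes, 5 sets, 200 changed genes each), the test called 71.4% of 4-fold and 10.0% of 2-fold rises, and 51.6% of 4-fold and 8.02% of 2-fold falls. Fewer genes changed there than were called in the data, so these rates are not the power of the test here. Alternatives covered scaling, filter, tool (DESeq2 1.42.0, limma 3.58.1), a replicate block, left-out libraries and repeated symbols. The sum without Kif23 and Mki67 was added after seeing the data. Promoter sequences are from RefSeq.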

Additional observations from a re-analysis of the deposited data

How the results depend on the processing

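Pcna and Kif23 passed in all 16 alternatives, Cdt1 in 15, Mcm3, Chek1 and Cenpe in 11 each, Mcm4 in 10, Rrm1 in 9, Foxm1 in 5 and Mcm6 in 4. Of the genes not called, Top2a passed in 3 (DESeq2, no filter and the block below), Tyms with DESeq2 and with no filter, Mcm5 with limma-voom, Nusap1 with no filter and Mki67 with the block. G2/M genes called higher numbered 0 with limma-voom in place of 2, and G2/M genes called lower numbered 2 with no low-count filter in place of 1. Mcm4, the only lower G1/S call, was lost (0) with a stricter filter of 1 CPM in 3 libraries and with the non-robust fit. Leaving out 1 library at a time gave 2 to 3 higher and 0 to 1 lower G1/S calls and 0 to 1 higher G2/M calls. Without liver 3 and blood 1 together there were 2 higher G1/S calls, 1 higher G2/M call and 1195 lower calls over all genes in place of 1916. Fewer samples enter these fits, and other causes were not tested. The log2 ratio of the sums was 0.60 for G1/S without Pcna, and for G2/M turned to 0.72 without Kif23 and 1.08 without Kif23 and Mki67.

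Of 460 pairs of a gene and an alternative, 6 changed sign, and of 928 pairs in the wider list, 13 did; all of these genes were uncalled. Without liver 3 and blood 1 together the log2 fold change was -0.40 for Ccne2, 0.082 for Cdk2, -0.17 for E2f3 and 0.15 for E2f4. Leaving out 1 library at a time gave -0.41 to 0.32 for Ccne2, -0.44 to 0.11 for Mcm7, -0.49 to 0.021 for Ccnb2, -0.14 to 0.038 for Cdk2, -0.25 to 0.80 for Cdkn2c, -0.17 to 0.33 for Rbl1, -0.083 to 0.58 for E2f3, -0.18 to 0.052 for E2f4 and -0.56 to 0.22 for E2f8. In the wider list 123 pairs lost a call and 2 gained one.

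Same-numbered liver and blood libraries correlated at 0.043, 0.135 and 0.0087 in their deviations from the group means. The other pairs of a liver and a blood library gave -0.164 to 0.121. With 3 libraries per group these values cannot decide whether the numbers pair mice. The numbers were not used to pair libraries in the main test. With the number as a replicate block, 4 G1/S genes were called higher and 1 lower, and 3 G2/M genes higher (Cenpe, Top2a and Mki67, the last at an adjusted p of 0.0477) and 1 lower; the count of all genes called higher in liver was then 2322, and of all genes called lower in liver 2312. In simulated data with fewer changed genes than were called here, most 2-fold changes were missed. Those rates are not the power of the test here, and an uncalled gene is not shown to be equal in the groups.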
